A study of Mus musculus with 12 samples.

Results

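The genes described here form the core of necroptosis and the caspase-8 brake on it: Ripk3, Mlkl, Casp8, Fadd, Cflar, Tradd, Cyld, Tnfrsf1a and Fas. These 9 genes, of 19505 measured, were chosen by name for their roles, when earlier results of these data were already known. Each is represented by its brightest probe set. Total RNA came from cardiac fibroblasts of newborn wild-type C57BL/6J mice, given in the labels as 1 to 7 days old, which had been kept in culture for 10 to 14 days and had become myofibroblasts. Cultures received 40 nM sCD74 together with 8 nM MIF, 8 nM MIF alone, 40 nM sCD74 alone, or carrier, and RNA was taken after 8 h. sCD74 is the soluble form of the MIF receptor CD74, and MIF is a secreted cytokine. Each of the 4 groups has 3 arrays, numbered 1 to 3, and the 4 arrays of a number share a code in their titles whose meaning the labels do not give. The labels do not say whether replicates came from separate isolations of cells, so each p-value reflects the spread among arrays, which may be technical.

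Necroptosis is a lytic form of cell death that death receptors such as the TNF receptor can start. When caspase-8 is not active, the kinase RIPK3 phosphorylates the pseudokinase MLKL, which assembles at the plasma membrane and breaks it. Caspase-8, held in a complex with FADD and the long form of cFLIP, cleaves parts of this machinery and keeps it in check. These steps are carried out by phosphorylation, cleavage and assembly of proteins, which arrays do not measure. The study behind the arrays described necroptosis of myofibroblasts exposed to sCD74 with MIF, and the comparisons here address whether the transcripts of the core and its brake differed in that group.

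The 100 bases before the start sites of Ripk3 and Mlkl are shown because these genes carry the main comparison, and shorter stretches of Cflar and Cyld because they hold the only matches among the members to the motifs searched. All come from RefSeq on build GRCm38.p6 and run 5′ to 3′ along the gene, with Ripk3 at chr14:55788858-55788957 and Mlkl at chr8:111338206-111338305 on the minus strand, and Cflar at chr1:58711487-58711516 and Cyld at chr8:88696848-88696907 on the plus strand. Capitals mark a match to the interferon-stimulated response element in Cflar and to the NF-kappaB site in Cyld.
Ripk3: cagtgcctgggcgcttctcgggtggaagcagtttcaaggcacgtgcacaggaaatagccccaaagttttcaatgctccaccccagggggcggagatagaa
Mlkl: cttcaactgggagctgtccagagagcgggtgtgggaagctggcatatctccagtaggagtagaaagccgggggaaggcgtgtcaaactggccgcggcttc
Cflar: ccacgtctgcTTTCGGTTTCtgggcgtctc
Cyld: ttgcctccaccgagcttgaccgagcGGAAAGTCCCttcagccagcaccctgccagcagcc
The first motif was TTTC, any 2 bases, TTTC, and the second was GGGA, any 2 bases, TTCC, each searched on both strands from 250 bases before to 50 bases after the start site. Of 32851 RefSeq promoters, 3.44% held the first and 1.47% the second. Among the members, 8 were matched to a promoter and Tradd was not. The Cflar match begins at base 7 of the transcript and the Cyld match, which reads on the opposite strand, at base -155. No match of either motif lay in the window of Ripk3 or Mlkl. A match is a description of letters and not a binding site.

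Array medians lay between 8.01 and 8.14 on the deposited log2 scale, and arrays of a group correlated at 0.982 to 0.990. Both were taken over all probe sets, controls included. The median of the negative control probe sets was 7.53 as a mean over arrays, and it ranged from 7.37 to 7.90 between single arrays. Every member averaged above 7.53, by 1.25 (Ripk3) to 8.04 (Casp8) on the log2 scale. The part of this range in the members' differences was not tested. The fibroblast markers averaged 14.73 to 15.05 and the myofibroblast markers 14.20 to 14.82 per array, so the labelled cell type was carried by high signal of its markers on every array. Markers of other cells were present too. The 13 measured macrophage markers averaged 12.34 to 12.74 in the arrays of number 1, 13.60 to 13.84 in number 2 and 13.13 to 13.52 in number 3. The 10 endothelial markers averaged 11.20 to 11.29 in number 1, 9.81 to 9.92 in number 2 and 10.19 to 10.50 in number 3. The 10 cardiomyocyte markers averaged 8.05 to 8.09 in number 3, against 9.50 to 9.77 in number 1 and 9.75 to 9.88 in number 2. The 6 smooth muscle and pericyte markers averaged 7.32 to 8.00, near the negative controls. In such cultures fewer cells of a type and less RNA per cell cannot be told apart.

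With sCD74 and MIF together, the 2 genes of the necroptosis core had the highest mean differences from carrier of the 9 members. Ripk3 was higher than carrier by 0.50 and Mlkl by 0.42 on the log2 scale, and neither passed the test across all genes. The 2 genes of the brake, Casp8 and Cflar, differed from carrier by -0.03 and 0.02. Tnfrsf1a, the TNF receptor that starts the pathway, was higher by 0.37, also without passing the test.

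Ripk3, the kinase that activates MLKL, had log2 values of 9.07, 8.89 and 8.94 with sCD74 and MIF, 9.14, 8.89 and 8.86 with MIF, 8.90, 8.83 and 8.44 with sCD74, and 8.29, 8.72 and 8.39 with carrier, for replicates 1, 2 and 3. Every array with MIF, alone or with sCD74, lay above every carrier array, and the sCD74 arrays overlapped with all other groups. The means were 8.97 ± 0.09 with sCD74 and MIF, 8.96 ± 0.15 with MIF, 8.72 ± 0.25 with sCD74 and 8.47 ± 0.23 with carrier (SD, n = 3 each). The difference between sCD74 with MIF and carrier was 0.50 ± 0.16 (SE), with a 95% interval of 0.16 to 0.84, an unadjusted limma p of 0.00798 and an adjusted p of 0.999. With replicate number as a block the adjusted p was 0.536. MIF alone against carrier gave the same size, 0.50 ± 0.16, and 0.32 without the arrays of number 1. Adding sCD74 to MIF moved Ripk3 by 0.00346 ± 0.16 (SE), with a 95% interval of -0.34 to 0.35. sCD74 alone lay above carrier by 0.26 ± 0.16 (SE) and in each of the 3 numbers, with an unadjusted limma p of 0.129. Without the arrays of number 1 that difference was 0.08. Adding MIF to sCD74 moved Ripk3 by 0.24 ± 0.16, with an unadjusted limma p of 0.152.

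Mlkl, the membrane executioner, had log2 values of 12.06, 12.49 and 12.65 with sCD74 and MIF, 12.14, 12.21 and 12.60 with MIF, 11.93, 12.23 and 12.08 with sCD74, and 11.91, 12.01 and 12.04 with carrier. All 6 arrays with MIF again lay above all 3 carrier arrays. The lowest array of both MIF groups was replicate 1, and the carrier arrays were close together. The means were 12.40 ± 0.31 with sCD74 and MIF, 12.32 ± 0.25 with MIF, 12.08 ± 0.15 with sCD74 and 11.99 ± 0.07 with carrier (SD, n = 3 each). The difference between sCD74 with MIF and carrier was 0.42 ± 0.17 (SE), with a 95% interval of 0.05 to 0.79, an unadjusted limma p of 0.0309 and an adjusted p of 0.999, or 0.549 with the block. MIF alone against carrier gave 0.33 ± 0.17, and 0.19 without MIF replicate 3. sCD74 alone lay above carrier by 0.09 ± 0.17 (SE), with an unadjusted limma p of 0.599. Adding MIF to sCD74 moved Mlkl by 0.32 ± 0.17, with an unadjusted limma p of 0.0819, or 0.0293 with the block (adjusted p 0.892).

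**Figure D1:**
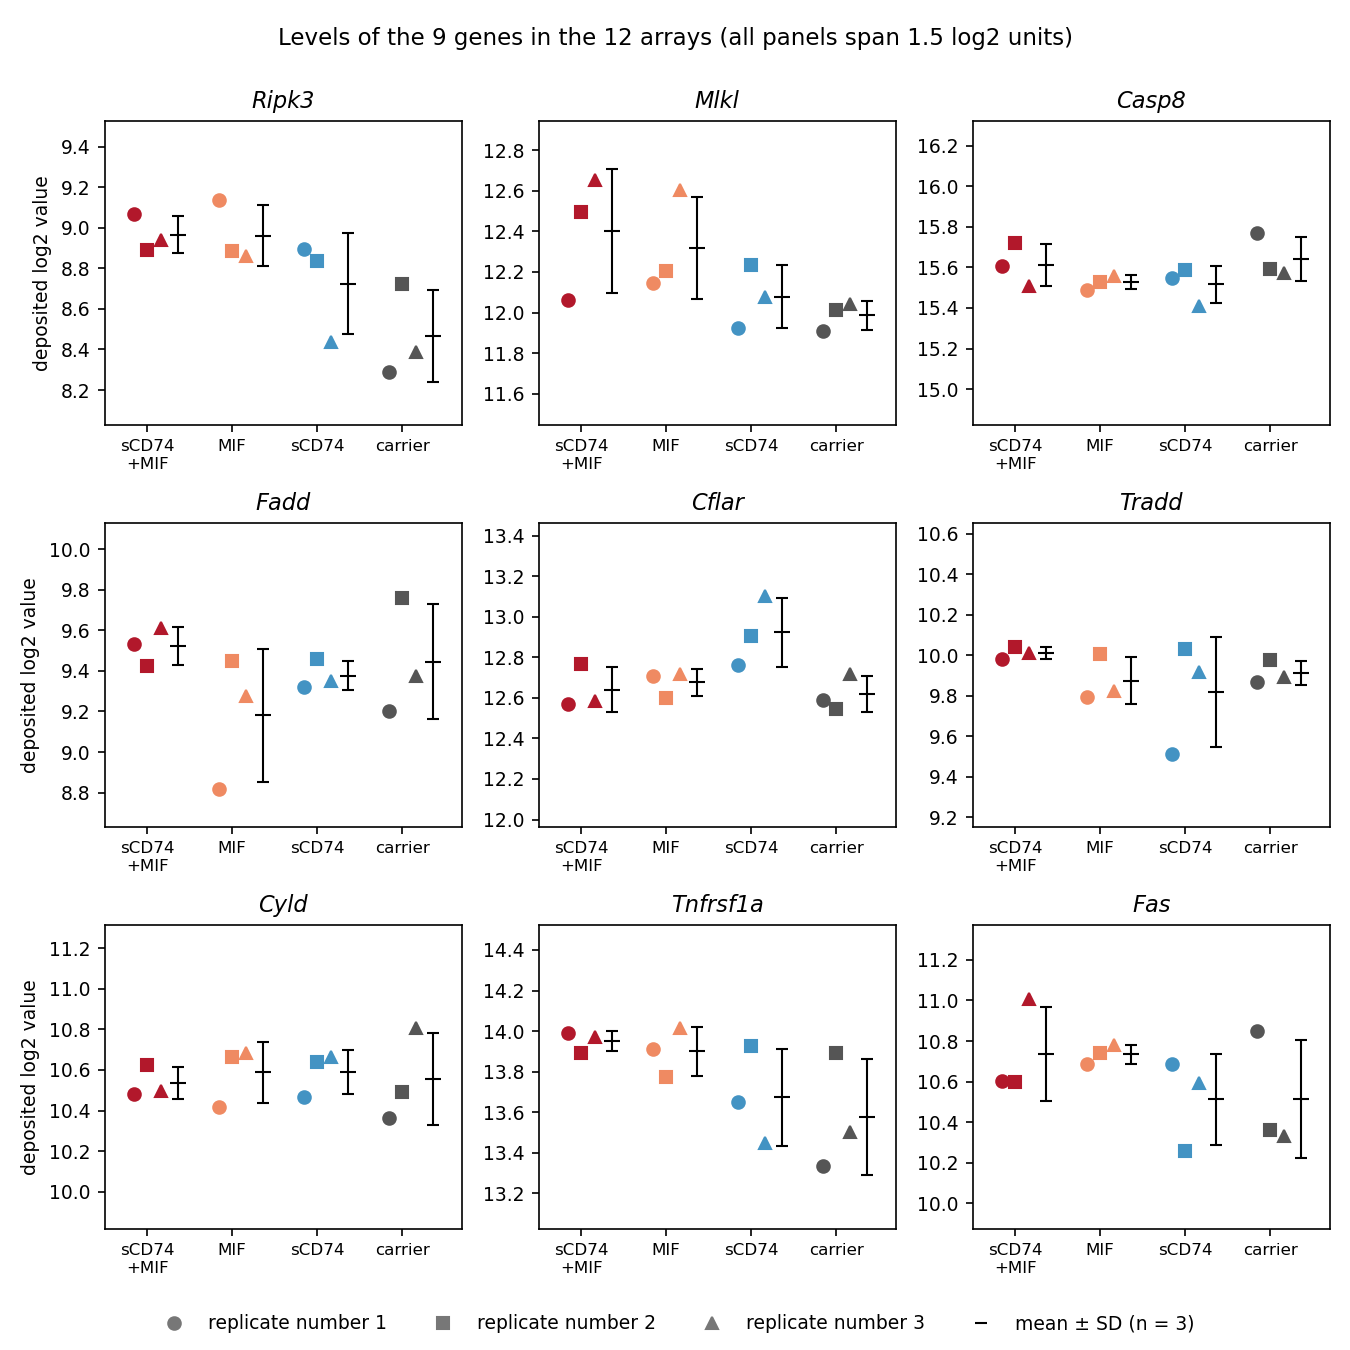
Deposited log2 values of the 9 genes on each of the 12 arrays, by group, with replicate numbers as symbols and the mean ± SD of each group (n = 3) to their right. All arrays with MIF lie above the carrier arrays for Ripk3 and Mlkl, while Casp8 stays within 15.41 to 15.77 on every array.

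Casp8, the protease that restrains RIPK3, had log2 values of 15.61, 15.72 and 15.51 with sCD74 and MIF, 15.49, 15.53 and 15.56 with MIF, 15.55, 15.59 and 15.41 with sCD74, and 15.77, 15.59 and 15.57 with carrier. The sCD74 with MIF arrays overlapped with the carrier arrays, with replicate 3 below all of them, and the 3 MIF arrays lay just below the lowest carrier array. The difference between sCD74 with MIF and carrier was -0.03 ± 0.12 (SE), with a 95% interval of -0.28 to 0.22. MIF alone differed from carrier by -0.12 ± 0.12 and sCD74 alone by -0.13 ± 0.12, and without carrier replicate 1 these were -0.055 and -0.065. Casp8 had the narrowest range of the members over the 12 arrays.

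Cflar encodes cFLIP, the partner that sets what caspase-8 does. Its log2 values were 12.57, 12.77 and 12.58 with sCD74 and MIF, 12.71, 12.60 and 12.72 with MIF, 12.76, 12.91 and 13.10 with sCD74, and 12.59, 12.55 and 12.72 with carrier. Here the sCD74 group was the high one, with each of its arrays above each carrier array, while both MIF groups overlapped with carrier. sCD74 alone differed from carrier by 0.30 ± 0.12 (SE), with a 95% interval of 0.03 to 0.57 and an unadjusted limma p of 0.0304. sCD74 with MIF differed from sCD74 alone by -0.28 ± 0.12, with an unadjusted limma p of 0.0425. Neither passed the adjusted test.

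Fadd, the adaptor that joins death receptors to caspase-8, had log2 values of 9.53, 9.43 and 9.61 with sCD74 and MIF, 8.82, 9.45 and 9.28 with MIF, 9.32, 9.46 and 9.35 with sCD74, and 9.20, 9.76 and 9.38 with carrier. The groups overlapped throughout, and the lowest array was replicate 1 of MIF. Its difference between sCD74 with MIF and carrier was 0.08 ± 0.18 (SE), with an interval of -0.31 to 0.46.

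Tnfrsf1a had log2 values of 13.99, 13.89 and 13.97 with sCD74 and MIF, 13.91, 13.78 and 14.01 with MIF, 13.65, 13.93 and 13.45 with sCD74, and 13.34, 13.89 and 13.50 with carrier. The sCD74 with MIF arrays were the tightest, and the lowest of them exceeded the highest carrier array by only 0.0011, both being replicate 2. The difference was 0.37 ± 0.16 (SE), with an interval of 0.02 to 0.73, an unadjusted limma p of 0.0389 and an adjusted p of 0.585 with the block. Within replicate numbers 1, 2 and 3 it was 0.65, 0.0011 and 0.47, and without number 1 it was 0.23.

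Fas, the receptor for Fas ligand, had log2 values of 10.60, 10.60 and 11.01 with sCD74 and MIF, 10.69, 10.74 and 10.78 with MIF, 10.69, 10.26 and 10.59 with sCD74, and 10.85, 10.36 and 10.33 with carrier. Carrier replicate 1 lay above every array of MIF alone, and the other carrier arrays lay below all 6 arrays with MIF. The difference between sCD74 with MIF and carrier was 0.22 ± 0.17 (SE), with an interval of -0.15 to 0.60. It was 0.088 without sCD74 with MIF replicate 3, and 0.39, 0.15 and 0.13 without carrier replicates 1, 2 and 3. Without all arrays of number 1 it was 0.46.

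Tradd, the adaptor of the TNF receptor, had log2 values of 9.98, 10.04 and 10.01 with sCD74 and MIF, 9.80, 10.01 and 9.82 with MIF, 9.51, 10.03 and 9.92 with sCD74, and 9.87, 9.98 and 9.89 with carrier. The sCD74 with MIF arrays lay above all carrier arrays by a small margin, with a difference of 0.10 ± 0.14 (SE) and an interval of -0.20 to 0.40. Cyld, the deubiquitinase that releases RIPK1 from the receptor complex, had values of 10.48, 10.63 and 10.49 with sCD74 and MIF, 10.42, 10.66 and 10.69 with MIF, 10.46, 10.64 and 10.67 with sCD74, and 10.37, 10.49 and 10.81 with carrier. Its groups overlapped, with a difference of -0.02 ± 0.14 (SE) and an interval of -0.33 to 0.28. RIPK1 itself was not analysed here.

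**Figure D2:**
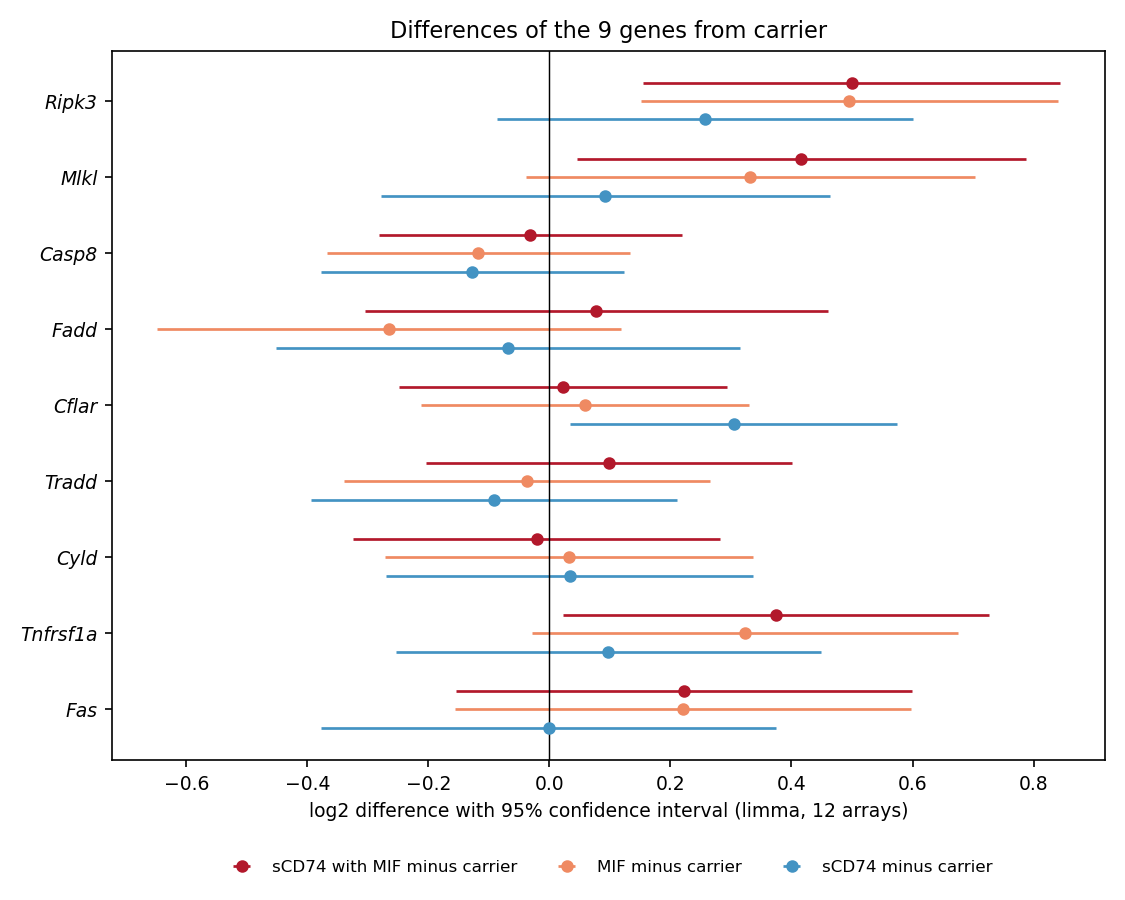
Log2 differences of the 9 genes from carrier for sCD74 with MIF, MIF and sCD74, as limma estimates with 95% intervals. For sCD74 with MIF the intervals of Ripk3 (0.16 to 0.84), Mlkl (0.05 to 0.79) and Tnfrsf1a (0.02 to 0.73) lie above 0, and none of the 9 genes passed the adjusted test.

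None of the 9 genes was called at an adjusted p under 0.05 in any treatment comparison by limma, and 0% of all genes were, without the block. With the block the share was 0% too, except between cultures with and without MIF, where 1 gene, or 0.00513%, was called. At an unadjusted limma p under 0.05, 780 genes differed in either direction between sCD74 with MIF and carrier. By that rule 3 of the 9 members were higher with sCD74 and MIF than with carrier, where 2.13% of all genes were. MIF alone had 1, where 1.80% of all genes were higher, and sCD74 alone had 1, where 0.733% were. With the replicate block the counts were 3 with sCD74 and MIF (4.38% of all genes higher), 2 with MIF (3.42%), Mlkl having an unadjusted p of 0.0262, and 1 with sCD74 (1.53%). The block raised the genes differing in either direction between sCD74 with MIF and carrier to 1606. The arrays did not overlap, with sCD74 and MIF higher than carrier, for 4 members (Ripk3, Mlkl, Tradd and Tnfrsf1a), against 4.52% of all genes. Between MIF and carrier, 2 members were higher without overlap, against 3.64% of all genes, and 1 was lower (Casp8), against 3.25%. Between sCD74 and carrier 1 was higher (Cflar), against 2.51%. The members were chosen with earlier results of these data known. Their counts beside the shares of all genes, here and below, are therefore descriptions and not tests.

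The difference from carrier was above 0 for 7 of 9 members with sCD74 and MIF, where 50.3% of all genes were. The corresponding counts were 6 with MIF, against 52.7%, and 5 with sCD74, against 50.0%. The members' median difference was 0.10 with sCD74 and MIF, 0.06 with MIF and 0.03 with sCD74, and the median over all genes was 0.00137 with sCD74 and MIF. These comparisons share the carrier arrays, so they are not independent of each other.

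Pooling the 6 arrays with MIF against the 6 without it, regardless of sCD74, placed the same genes at the top. Ripk3 lay at 8.86 to 9.14 with MIF (median 8.91) and at 8.29 to 8.90 without it (median 8.58). Mlkl lay at 12.06 to 12.65 with MIF (median 12.35) and at 11.91 to 12.23 without it (median 12.03). For each gene 3 of the 6 arrays with MIF lay above every array without it, so the sets overlapped. The differences were 0.37 ± 0.11 (SE) for Ripk3, 0.33 ± 0.12 for Mlkl and 0.30 ± 0.11 for Tnfrsf1a. Each had an unadjusted limma p under 0.05, at 0.00611, 0.0184 and 0.0219, where 2.45% of all genes were higher by that rule, and 4.67% with the block. With the block their adjusted p-values were 0.487, 0.505 and 0.544. Casp8 differed by -0.01 ± 0.08, with an interval of -0.19 to 0.17, and Cflar by -0.11 ± 0.09. Of the members, 5 were above 0, against 52.5% of all genes.

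When each array with MIF was set against the array of the same number and sCD74 status without it, Ripk3 and Mlkl were higher in 6 of 6 pairs. The pair differences were 0.05 to 0.85 for Ripk3 and 0.14 to 0.58 for Mlkl, and 2.76% of all genes were higher in every pair. Tnfrsf1a was higher in 4 of the 6 pairs, with both pairs of number 2 slightly below 0. Fas was higher in 4 of 6, with both pairs of number 1 below 0. Casp8 was higher in 3 of 6, and these were the 3 pairs with sCD74.

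**Figure D3:**
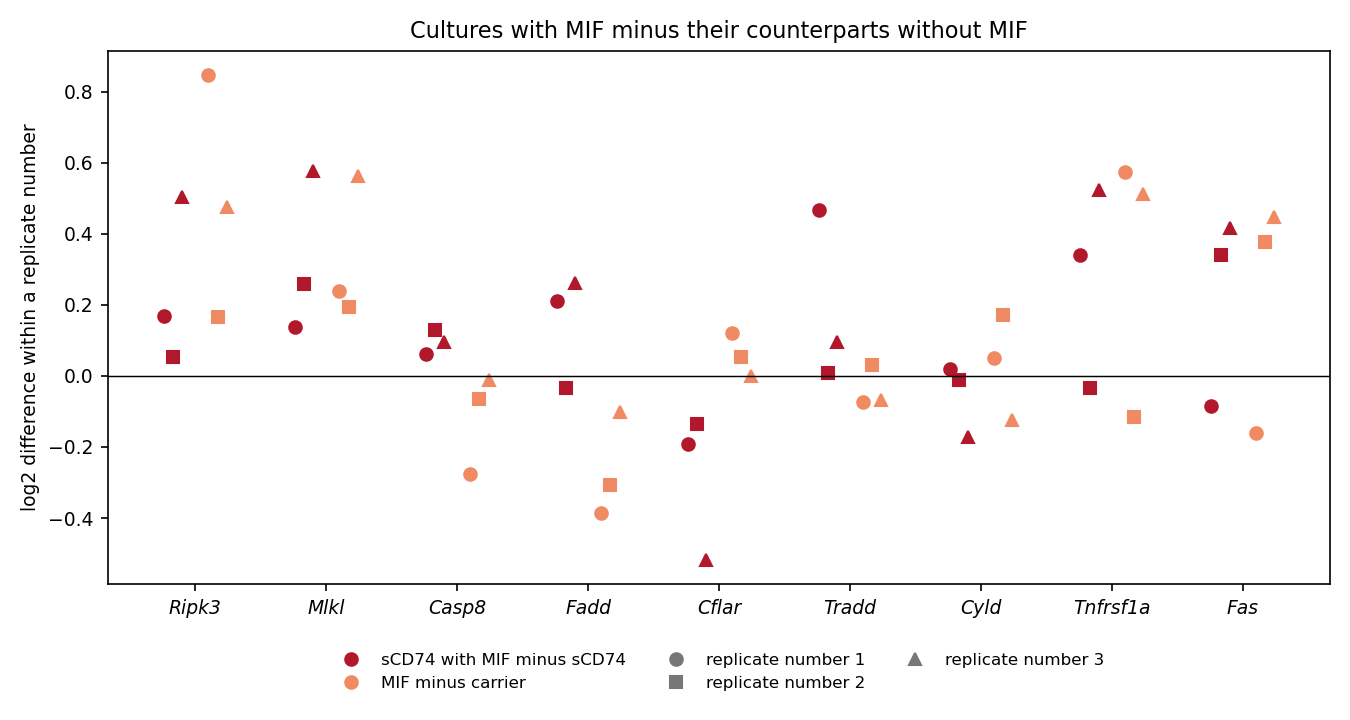
Log2 difference between each array with MIF and the array of the same replicate number without it, in the presence of sCD74 (dark) and in its absence (light), with symbols for replicate numbers. All 6 points of Ripk3 (0.05 to 0.85) and of Mlkl (0.14 to 0.58) lie above 0, and the points of Casp8 and Cflar fall on both sides by sCD74 status.

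Whether the combination exceeded the sum of its parts was tested as the departure from additive effects. For Ripk3 it was -0.25 ± 0.22 (SE) and for Mlkl -0.01 ± 0.24. For Fadd it was 0.41 ± 0.25 and for Cflar -0.34 ± 0.18, with unadjusted limma p-values of 0.124 and 0.0766. None of the 9 genes passed the adjusted test, and the intervals of Ripk3 and Mlkl held values on both sides of 0. sCD74 with MIF minus MIF alone was 0.08 ± 0.17 (SE) for Mlkl and 0.05 ± 0.16 for Tnfrsf1a. For Fadd it was 0.34, with an unadjusted limma p of 0.0752, or 0.0376 with the block. The adjusted p of Fadd with the block was 0.997.

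Replicate numbers differed in many genes. Between number 1 and the mean of numbers 2 and 3, 3204 genes, or 16.4%, were called at an adjusted p under 0.05, and between numbers 3 and 2 it was 224 genes, or 1.15%. None of the 9 members was among them. Mlkl came closest, at -0.28 ± 0.10 (SE) in number 1 against the others with an adjusted limma p of 0.0741, followed by Cyld at -0.20 with 0.142 and Fadd at -0.24 with 0.160. Among only the genes above the negative control median, Mlkl passed, with an adjusted p of 0.0363. Mlkl averaged 12.01 in number 1, 12.24 in number 2 and 12.34 in number 3. All 13 measured macrophage markers fell in number 1, with a median difference of -1.02, and their part in the Mlkl values was not tested. Of these markers, 11 of 13 were below carrier in each treated group, with median differences of -0.17 with sCD74 and MIF, -0.19 with MIF and -0.29 with sCD74, and none was called. Between cultures with and without MIF the median was -0.01. The part of these markers in the members' differences from carrier was not tested.

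Without the arrays of number 1 the difference between sCD74 with MIF and carrier was 0.36 for Ripk3 and 0.55 for Mlkl. Leaving out any single array of the 12 gave 0.41 to 0.63 for Ripk3 and 0.29 to 0.59 for Mlkl. Within numbers 1, 2 and 3 the differences were 0.78, 0.17 and 0.55 for Ripk3, and 0.16, 0.48 and 0.61 for Mlkl. Ripk3 thus differed most in number 1, where Mlkl differed least.

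The wider pathway was described with lists of the same death programme. Of 12 input genes (ligands, receptors and sensors), 11 were higher with sCD74 and MIF than with carrier, with a median difference of 0.07. Fasl and Tnfsf10 averaged below the negative control median, and of the 10 others 9 were higher. Tlr3, an RNA sensor that can start necroptosis, was at 12.32 ± 0.15 with sCD74 and MIF, 12.14 ± 0.13 with MIF, 11.94 ± 0.15 with sCD74 and 11.94 ± 0.13 with carrier (SD, n = 3 each), a difference of 0.38 ± 0.14 (SE) between the first group and carrier. Tnf, the ligand of Tnfrsf1a, averaged 8.61 with sCD74 and MIF and 8.49 with MIF. With sCD74 it averaged 7.54 and with carrier 7.52, at the level of the negative controls, so no size of difference is given. For sCD74 with MIF against carrier its unadjusted limma p was 0.0629, or 0.00145 with the block (adjusted p 0.534). Between cultures with and without MIF the unadjusted limma p of Tnf was 0.0188, or 0.000151 with the block (adjusted p 0.422). Tnfrsf10b, the mouse TRAIL receptor, differed by 0.24 ± 0.18.

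Of the 22 measured genes of the receptor complex and its ubiquitin chains, 16 were higher, with a median of 0.11, and of the 21 above the negative control median 15 were. Birc3, encoding the ubiquitin ligase cIAP2 that holds RIPK1 in the survival complex, was the 1 gene called between cultures with and without MIF under the block, at 0.81 ± 0.10 (SE) with an adjusted limma p of 0.0486. Without the block it was not called. Its values were 12.68, 13.06 and 13.21 with sCD74 and MIF, 12.41, 13.23 and 13.23 with MIF, 11.96, 12.32 and 12.26 with sCD74, and 11.94, 12.42 and 12.10 with carrier. Every array with MIF except replicate 1 of MIF lay above all arrays without it. Tnfaip3, encoding the NF-kappaB inhibitor A20, differed by 0.72 ± 0.33 between sCD74 with MIF and carrier, and Birc2, encoding cIAP1, by 0.29 ± 0.15. With the block the SE of Tnfaip3 was 0.22, its unadjusted limma p 0.00588 and its adjusted p 0.547.

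Of 16 measured regulators of MLKL and of membrane repair, 11 were higher, with a median of 0.07, and none had an unadjusted p under 0.05 without the block. The widest difference was that of Ninj1, known for the final rupture of the plasma membrane, at 0.40 ± 0.37 (SE) without the block and 0.40 ± 0.12 with it, where limma's unadjusted p was 0.00632 and the adjusted p 0.547. It is named after its values were seen. The 3 with the smallest p without the block were Flot2 at 0.16 ± 0.13 (SE), Vps4a at 0.15 ± 0.13 and Flot1 at 0.15 ± 0.13. Flotillins and the ESCRT ATPase VPS4A are known to take MLKL away from the membrane or to repair it. Of 10 measured genes of apoptosis and of pyroptosis (gasdermins and Casp4) 7 were higher, with a median of 0.14, and of the 8 above the negative control median 6 were. Cycs, cytochrome c, was at 14.90 ± 0.04 with sCD74 and MIF and 14.58 ± 0.15 with carrier (SD, n = 3 each), a difference of 0.32 ± 0.11 (SE). Casp4, the mouse caspase-11, differed by 0.38 ± 0.18 and Bak1 by 0.27 ± 0.18. Of 8 genes of released damage signals 6 were higher, with a median of 0.06. Of the 6 above the negative control median 5 were higher, with a median of 0.13. Hmgn1 differed by 0.19 ± 0.12 and Il1b by 0.36 ± 0.34, and S100a9 lay at the level of the negative controls. No gene of these lists was called in this comparison, with or without the block.

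**Figure D4:**
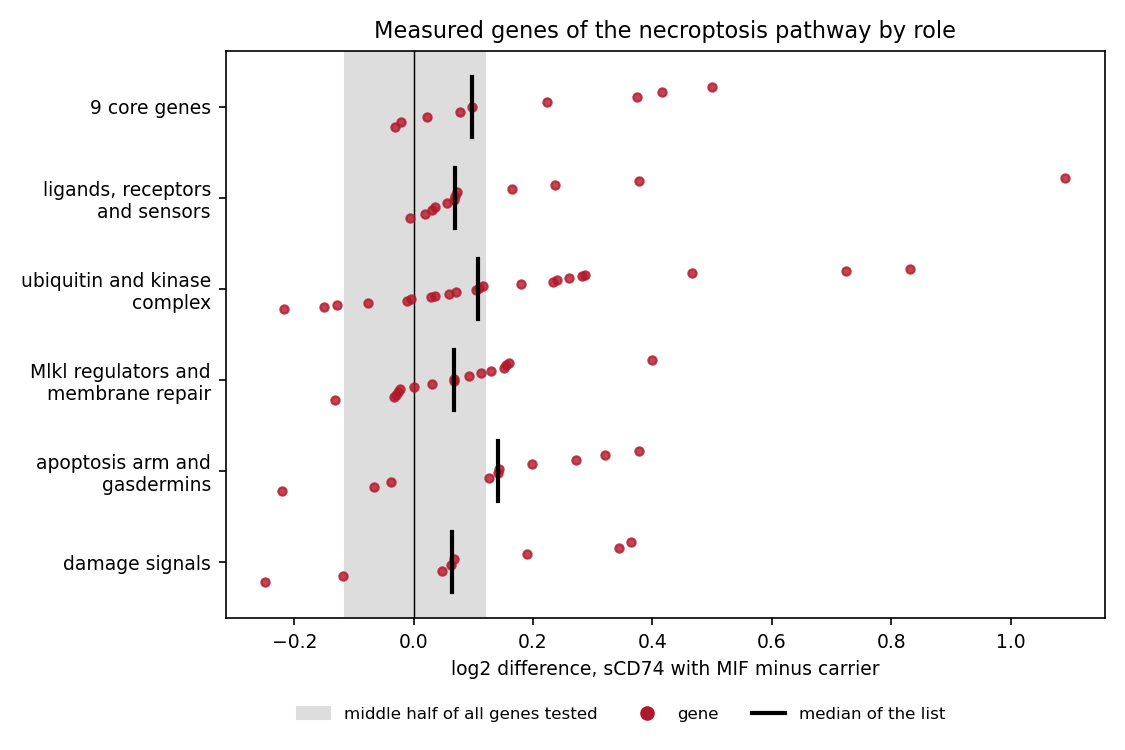
Log2 difference between sCD74 with MIF and carrier for the measured genes of the 9 members and the 5 wider lists, 1 point a gene, those below the negative controls included, with the median of each list as a bar and shading over the interquartile range of all genes (-0.11 to 0.12). The medians lie between 0.06 and 0.14, and no point passed the adjusted test.

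Genes with a like pattern were ranked by Pearson's r over the 12 arrays after the mean of each replicate number was taken off. The arrays share their number and treatment structure, so r is a description. The genes closest to Ripk3 were Tnfrsf12a (r = 0.989), encoding the TWEAK receptor, Phb2 (0.973), Slc39a14 (0.966), Cops7a (0.962) and Eif3d (0.955). Tnfrsf1a stood at rank 30 with 0.916. The genes closest to Mlkl were Kit (0.960), Ptgir (0.953), the prostacyclin receptor gene, Il1rn (0.933), Icam1 (0.927) and 3425401B19Rik (0.922). Ripk3 and Mlkl correlated with each other at 0.724, and Mlkl was at rank 939 of the 11289 genes ranked for Ripk3. The genes closest to Casp8 were C1qb (0.920), which encodes a chain of complement C1q, Arhgef3 (0.918), Rassf4 (0.917), Plcg2 (0.912) and Gatc (0.907). Ripk3 and Casp8 correlated at -0.457.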

How the data were processed

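The deposited values were log2 expression values of 12 Affymetrix arrays, which the authors made with RMA; the submitters' processing notes also name Transcriptome Analysis Console and Affymetrix Expression Console; versions and the genome build are not given in the sources used here. Some values exceed 16, so the exact scale is that of the authors. Of 28846 probe sets, 6640 controls and 2634 without a gene symbol were left out, and the brightest probe set per gene was kept, for 19505 genes. limma 3.58.1 in R 4.3.3 fitted 4 group means to all 12 arrays, with Benjamini-Hochberg adjustment over all genes and a threshold of 0.05. Replicate numbers were compared with a fit of group and number. The fit without a block was run on simulated data with independent noise and no effect of replicate number. Such data do not test the fit where arrays of a number deviate together. Figures and counts used Python 3.11.15, pandas 2.3.3 and matplotlib 3.10.9.

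Arrays with the same number share a title code and deviated together from their group means. The median correlation of deviations was 0.433 over 18 pairs (0.097 to 0.647), against -0.212 over 36 pairs of unlike number. Deviations from a group mean cancel within the group, so the value for unlike numbers largely follows from the other and is not separate evidence. A fit with the number as a block is therefore given beside some results. Values given without mention of the block come from the fit without it. Other alternatives were trend and robust variance, centring, another quantile normalization, a filter on dim genes, and leaving out each array or number 1. The members and lists were chosen with earlier results of these data known. The text names all 9 members, for each wider list the genes called or else the 3 with the smallest p in sCD74 with MIF against carrier, and the 5 genes most like Ripk3, Mlkl and Casp8. Precision is limited by having 3 arrays a group, with a median SE of 0.169 for a difference between groups, or 0.141 with the block.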

Additional observations from a re-analysis of the deposited data

Results flagged for a closer look

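For Casp8 the difference between arrays with and without MIF had opposite signs with and without sCD74 in every replicate number. Members were flagged by this sign rule on these same values, and the share of all genes meeting it was not counted. Neither flagged gene passed the adjusted test for a difference of the effects. With sCD74 present, MIF arrays were higher than their counterparts by 0.06, 0.13 and 0.10 in numbers 1, 2 and 3. Without sCD74 they differed by -0.28, -0.07 and -0.01. The difference of the effects was 0.21 ± 0.16 (SE), with a 95% interval of -0.14 to 0.57, an unadjusted limma p of 0.214 and an adjusted p of 1.

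For Cflar the difference between arrays with and without MIF also had opposite signs with and without sCD74. With sCD74 it was -0.19, -0.14 and -0.52 in numbers 1, 2 and 3, and without sCD74 it was 0.12, 0.05 and 0.0006. The difference of the effects was -0.34 ± 0.18 (SE), with a 95% interval of -0.72 to 0.04, an unadjusted limma p of 0.0766 and an adjusted p of 1.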

How the results depend on the processing

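Of 684 alternative values of members between treatments, 647 kept direction and side of the threshold and 37 changed sign, none of them past the threshold; of 288 between numbers, 283 kept both, 4 changed sign and 1, Mlkl in number 1, passed (-0.28). The replicate block called 1 gene between cultures with and without MIF, and with trend and robust variance it called 3, 6 for sCD74 with MIF against carrier, 1 for MIF against carrier and 2 for sCD74 with MIF against sCD74, in place of 0 without the block. It called no member. Leaving out 1 array gave 0 to 1 calls between cultures with and without MIF (1 without MIF replicate 1), 2079 to 3063 for number 1 (3204 with all arrays; 2079 without sCD74 replicate 1) and 59 to 227 for number 3 against 2 (224 with all arrays), which had 540 among genes above the negative control median; the causes were not tested. Centring gave Fas 0.011 for sCD74 against carrier, and quantile normalization gave Cflar -0.0073 for sCD74 with MIF against carrier. Without number 1, Casp8 was 0.032 and Fadd -0.048 for sCD74 with MIF against carrier, Tradd 0.039, Tnfrsf1a -0.0098 and Fas 0.078 for sCD74 against carrier, and Casp8 0.038 between cultures with and without MIF. Leaving out 1 array turned the sign within these ranges. For sCD74 with MIF against carrier they were -0.085 to 0.031 for Casp8, -0.044 to 0.23 for Fadd, -0.042 to 0.073 for Cflar and -0.12 to 0.11 for Cyld. For MIF against carrier they were -0.10 to 0.0031 for Tradd and -0.063 to 0.16 for Cyld. For sCD74 against carrier they were -0.19 to 0.087 for Fadd, -0.20 to 0.061 for Tradd, -0.062 to 0.16 for Cyld, -0.028 to 0.25 for Tnfrsf1a and -0.092 to 0.17 for Fas. Between cultures with and without MIF they were -0.038 to 0.020 for Casp8, -0.13 to 0.032 for Fadd and -0.059 to 0.052 for Cyld. For number 1 they were -0.0032 to 0.077 for Casp8, -0.14 to 0.012 for Tnfrsf1a and -0.0028 to 0.23 for Fas, and for number 3 against 2 they were -0.020 to 0.13 for Cyld.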

Other observations

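Genes of the wider pathway differed between replicate numbers where the 9 members did not pass the test. In number 1 against the mean of numbers 2 and 3, 8 of the 22 measured genes of the receptor complex fell, where 16.4% of all genes were called in either direction, among them Ikbke by 0.71 ± 0.11 (SE, adjusted limma p 0.00107), Traf2 by 0.61 ± 0.11 (0.00216) and the linear ubiquitin ligase subunit Rnf31 by 0.56 ± 0.11 (0.00354). Ninj1, which is known to drive the final rupture of the plasma membrane, fell by 0.86 ± 0.09 (5.7e-05), and Il1a fell by 0.93 ± 0.20 (0.0062). Il33 rose by 0.50 ± 0.14 (0.0326) and Hsp90aa1, a chaperone of RIPK3 and MLKL, by 0.38 ± 0.09 (0.014). The genes named here were chosen after their values were seen. Markers of several cell types also differed between number 1 and the mean of numbers 2 and 3. All 13 measured macrophage markers fell, 5 of 9 myofibroblast markers rose (all 9 were higher, median 0.32), 6 of 10 endothelial markers rose and 1 fell (median 0.87), and 5 of 10 cardiomyocyte markers rose (all 10 were higher, median 0.44). The cardiomyocyte markers did not exceed number 2 in number 1, averaging 9.50 to 9.77 in number 1 and 9.75 to 9.88 in number 2. They averaged 8.05 to 8.09 in number 3, where all 10 were lower than in number 2, with a median difference of -1.47. The part of the cell type markers in the differences of the pathway genes was not tested.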
